A study of Mus musculus with 6 samples.

Results

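Antioxidant and glutathione enzymes are the proteins that remove superoxide, hydrogen peroxide and lipid peroxides from a cell and that make, recycle and spend glutathione. The members were chosen by gene symbol alone. They are the glutathione peroxidases, peroxiredoxins 1 to 6, superoxide dismutases, glutathione S-transferases, thioredoxins and their reductases, glutaredoxins and haem oxygenases, together with Cat, Gclc, Gclm, Gss, Gsr, Nqo1, Txnip and Srxn1. A probe set, the group of short probes that reads 1 transcript on the array, was kept if the platform annotation gave it 1 gene symbol. This found 100 probe sets of 56 genes among the 18186 genes with such a probe set. Where a gene had several, the one with the highest mean over the 6 arrays stands for it. Of the peroxiredoxins this leaves Prdx2, Prdx3 and Prdx4. Prdx1 and Gsta1 had no probe set of their own, and Prdx5 and Prdx6 no probe set under the rule, and they were not analysed here.

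Superoxide dismutases turn superoxide into hydrogen peroxide, which catalase, glutathione peroxidases and peroxiredoxins then reduce to water. Glutathione and thioredoxin supply the electrons for the glutathione peroxidases and peroxiredoxins, and are recharged by reductases that draw on NADPH. Many of these genes carry antioxidant response elements, at which the factor Nrf2 (encoded by Nfe2l2) activates and Bach1 represses transcription. Haematopoietic stem cells (HSC) are known to keep reactive oxygen low, and a rise of it is known to drive them out of quiescence.

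The HSC were sorted by flow cytometry from the bone marrow of wildtype mice or of mice labelled PU.1 KD, a knockdown, in a study of Jun factors and PU.1 in leukaemic stem cells. Spi1 is the gene of PU.1, a transcription factor that directs the myeloid and B cell lineages. There were 3 pools of 3 animals per group, with 1 expression array (Affymetrix 430 2.0) for each pool. The sources used here do not give the means by which PU.1 was reduced, the strain, the age or the sort markers. Values below are log2 of the deposited intensity plus 16 after quantile normalisation, as mean ± SD with n = 3 pools. Differences are knockdown minus wildtype, SE is their standard error from a limma fit to all 44991 probe sets, and adjusted p-values are Benjamini-Hochberg values over all of them.

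Spi1 ranged from 9.42 to 10.13 over the wildtype arrays and from 7.06 to 8.73 over the knockdown arrays, without overlap. Of the 9 stem and progenitor markers measured, such as Kit, Hlf and Meis1, all 9 had means above the median of all probe sets. So had all 10 neutrophil granule genes, whose summed intensity was 23680 in wildtype pool 2 and 49016 to 60974 in the other wildtype pools, against 47292 to 61455 in the knockdown pools. Wildtype pool 2 thus stands apart, and values that shift most without it are given with and without it. The summed intensity of 5 eosinophil genes was 1971 to 12493 in wildtype and 227 to 1174 in knockdown pools, and Ccr3 was under 1, the floor set here, on 1 array. Over 6 mast cell and basophil genes it was 497 to 2770 and 1859 to 3861, and their mean log2 value was higher in every knockdown pool (8.05 to 8.91) than in any wildtype pool (6.41 to 7.96). Over 7 megakaryocyte and platelet genes the mean log2 value was lower in every knockdown pool (7.10 to 9.09) than in any wildtype pool (9.13 to 10.39). Knockdown pool 3 was the lowest of all pools for 9 monocyte and macrophage genes, at 7.46 beside 8.78 to 9.44 in the other pools, and for 6 B lymphoid genes, at 6.88 beside 7.85 to 8.39. By gene, the knockdown mean was lower for all 9 of the former (median difference -0.76) and 5 of the 6 latter (median -0.82). In sorted bulk samples, fewer cells of a type and less RNA per cell cannot be told apart, and the part of these cell types in the results below was not tested.

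The enzymes as a group differed little between wildtype and PU.1 knockdown HSC. The values that stood furthest apart were higher in the knockdown, those of Gclm, the modifier subunit of the enzyme that starts glutathione synthesis, and of Gstp3, a pi class glutathione S-transferase. None of the 56 genes passed the limma test at an adjusted p under 0.05, as 0.0% of all genes did, and the smallest adjusted p among them was 0.382. Before adjustment, 3 members (Gstp3, Gclm and Nqo1) had a limma p under 0.05, beside 7.63% of all genes. All 3 were higher in the knockdown pools, beside 4.1% of all genes, and 0 were lower, beside 3.52%. By probe set, 5 of the members' 100 had such a p, beside 7.11% of all probe sets. The groups did not overlap for 5 members, beside 13.8% of all genes. Of these, Gclm, Gstp3, Gstp1 and Txnrd1 were higher, beside 8.42% of all genes, and Cat was lower, beside 5.39%. Each of these shares of the members lies near or below that of all genes.

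The median difference over the 56 genes was 0.075, beside 0.018 over all genes. Means were higher in the knockdown pools for 39 members (69.6%), beside 53.4% of all genes. With the values as deposited these shares were 58.9% and 41.9%, and without wildtype pool 2 they were 53.6% and 51.0%. Most differences were small, with 36 of the 56 under 0.2 in size. The standard error had a median of 0.19 over the members, so differences of that size lie within the error of the fit. The members' values spanned a median of 0.67 over the 6 pools, beside 0.58 for all genes.

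**Figure D1:**
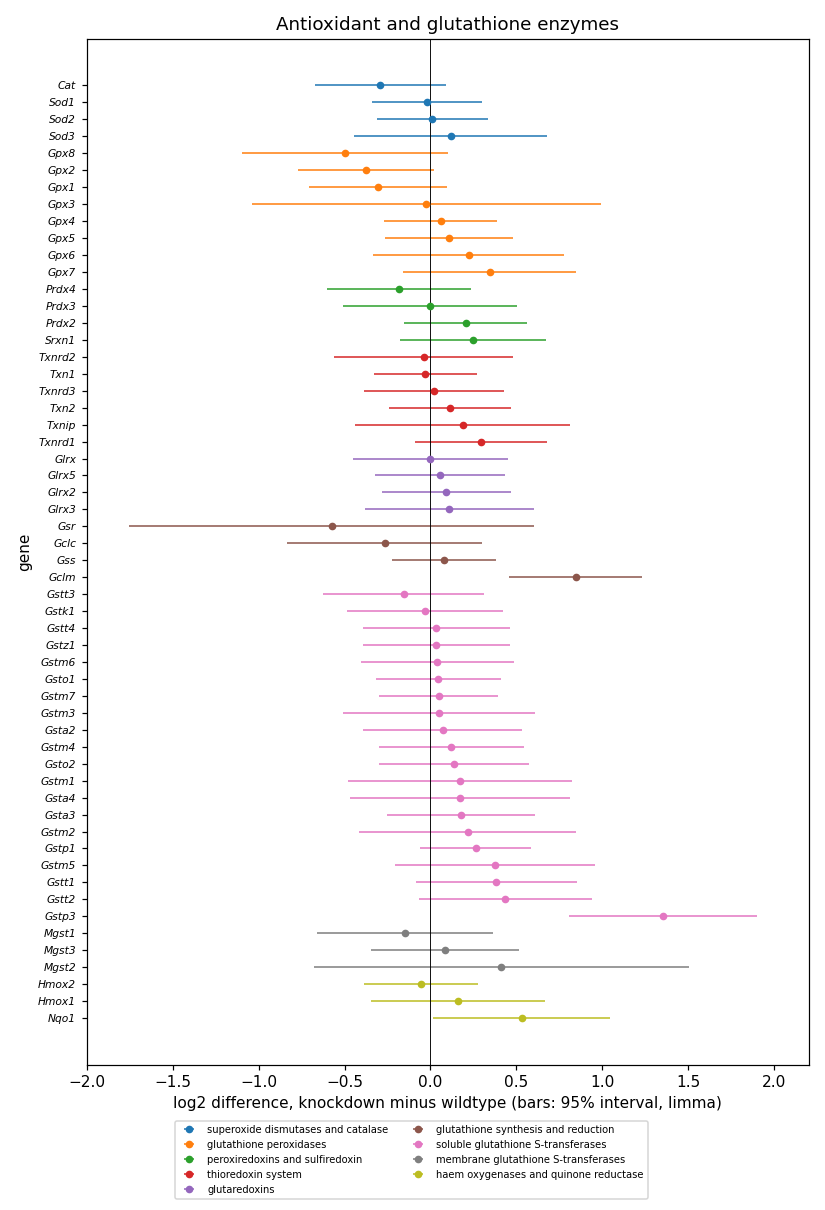
Log2 difference, knockdown minus wildtype, of each of the 56 genes (points) with its 95% interval from limma (bars), coloured by role. The intervals of Gclm, Gstp3 and Nqo1 lie to the right of 0, and all others include 0.

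**Figure D2:**
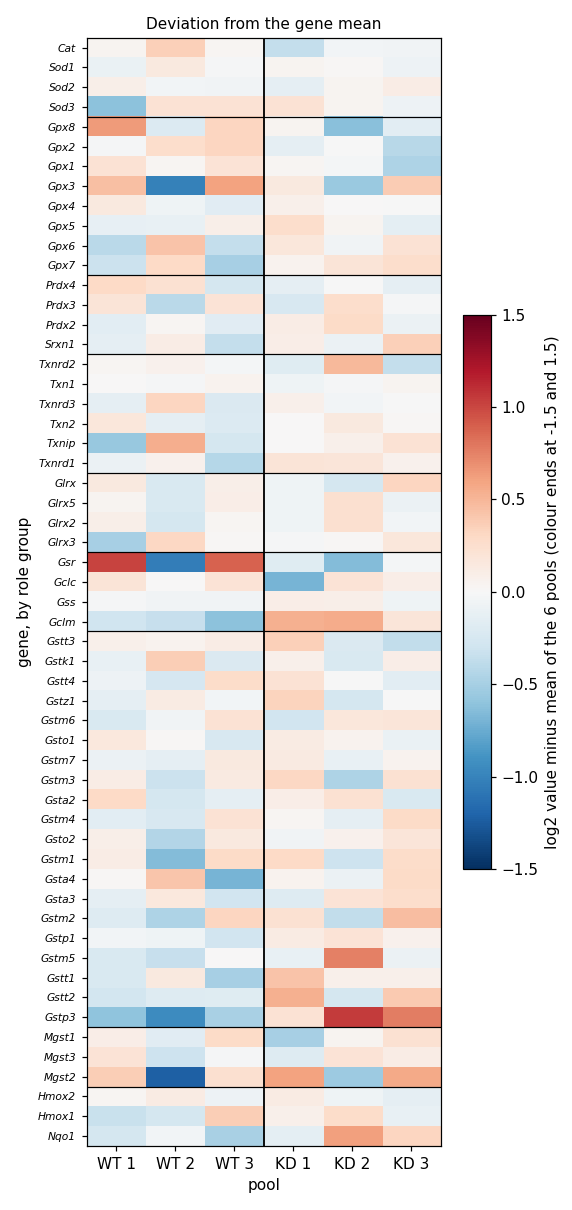
Log2 value of each gene in each pool minus that gene's mean over the 6 pools (colour), with genes in rows by role group and pools in columns, WT for wildtype and KD for knockdown. Gstp3 and Gclm separate the groups, while Gsr, Mgst2 and Gpx3 are lowest in wildtype pool 2.

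The sequences upstream of the 5 genes whose groups did not overlap are shown for the sites that redox and myeloid factors are known to bind. Each run is the 250 bases before the RefSeq start of the gene, 5′ to 3′ on the gene's strand, in mouse build GRCm38.p6. Capitals mark the core letters of an antioxidant response element (TGACNNNGC), an AP-1 site (TGANTCA) or a PU.1 site (GAGGAA), on either strand.
Gclm, chr3:122245307-122245556, plus strand: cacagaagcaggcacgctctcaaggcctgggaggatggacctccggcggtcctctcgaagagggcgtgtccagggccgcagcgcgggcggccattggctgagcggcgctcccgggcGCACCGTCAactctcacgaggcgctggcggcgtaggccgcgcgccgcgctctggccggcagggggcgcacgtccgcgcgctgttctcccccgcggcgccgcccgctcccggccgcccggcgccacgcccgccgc
Gstp3, chr19:4059448-4059697, minus strand: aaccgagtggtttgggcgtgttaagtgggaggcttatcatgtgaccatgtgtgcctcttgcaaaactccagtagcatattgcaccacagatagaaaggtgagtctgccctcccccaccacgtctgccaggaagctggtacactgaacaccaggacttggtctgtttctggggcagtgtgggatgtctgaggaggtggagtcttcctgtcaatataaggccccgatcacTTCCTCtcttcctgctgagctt
Gstp1, chr19:4037913-4038162, minus strand: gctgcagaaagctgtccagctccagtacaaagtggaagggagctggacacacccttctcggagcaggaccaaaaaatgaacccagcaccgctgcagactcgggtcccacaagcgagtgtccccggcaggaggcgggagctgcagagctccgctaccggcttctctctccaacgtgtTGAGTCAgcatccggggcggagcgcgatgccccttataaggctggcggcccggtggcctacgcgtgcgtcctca
Txnrd1, chr10:82858956-82859205, plus strand: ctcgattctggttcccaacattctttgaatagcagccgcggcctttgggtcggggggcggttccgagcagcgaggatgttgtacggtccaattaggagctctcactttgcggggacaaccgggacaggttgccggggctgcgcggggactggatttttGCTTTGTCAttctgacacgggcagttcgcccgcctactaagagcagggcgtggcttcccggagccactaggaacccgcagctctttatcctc
Cat, chr2:103485154-103485403, minus strand: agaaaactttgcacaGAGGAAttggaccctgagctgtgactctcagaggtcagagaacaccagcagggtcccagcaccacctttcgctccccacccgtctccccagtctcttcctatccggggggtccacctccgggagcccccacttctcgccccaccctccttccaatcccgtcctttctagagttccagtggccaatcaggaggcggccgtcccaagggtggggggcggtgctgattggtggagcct

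The run of Gclm holds an antioxidant response element core that begins 134 bases before the start. That of Gstp1 holds an AP-1 site at 74 bases, and those of Gstp3 and Cat each hold a PU.1 core, at 22 and 235 bases. Txnrd1 has 3 annotated starts, and the run shown is the one with an antioxidant response element core, at 92 bases. The start farther upstream has a pair of PU.1 cores in its window, and the remaining one has no match to any of the motifs.

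Per gene, these letters occurred at shares a little above those of all genes, and per window they did not for 2 of the 3 motifs. RefSeq windows were matched for 50 of the 56 genes. An antioxidant response element core stood in the windows of 7 (14.0%), namely Gclm, Gsta3, Gstm5, Gstm7, Mgst1, Sod1 and Txnrd1, beside 11.5% of 27025 genes. AP-1 letters stood in those of Glrx, Gstm5, Gstp1, Mgst2 and Srxn1, 5 of 50 genes beside 7.82%. PU.1 cores stood in those of 15 genes, 30.0% beside 25.9%. The members had 70 windows, more per gene than the 32851 of all genes. Per window, antioxidant cores stood in 7 of 70 beside 10.2% of all windows, AP-1 letters in 8.57% beside 6.75%, and PU.1 cores in 21.4% beside 23.3%. Antioxidant letters, searched only as TGACNNNGC, overlapped AP-1 letters in 0 member windows. The AP-1 site of Gstp1 with the bases after it, TGAGTCAgc, has a G in place of the C of that pattern and was not counted. A match is a description of the letters and not evidence of binding.

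Glutathione is made in a pair of steps. Glutamate-cysteine ligase, built of the catalytic subunit Gclc and the modifier subunit Gclm, joins the first amino acids, and glutathione synthetase (Gss) adds glycine, while glutathione reductase (Gsr) recycles the oxidised form. Gclm (1418627_at) read 9.96, 9.91 and 9.65 in wildtype pools 1, 2 and 3, against 10.79, 10.82 and 10.45 in knockdown pools 1, 2 and 3. Every knockdown pool lay above every wildtype pool, by more than the spread within either group. The means were 9.84 ± 0.17 and 10.69 ± 0.21, a difference of 0.85 (SE 0.17, 95% interval 0.46 to 1.23), or 1.80-fold. Its limma p was 0.00108 and the adjusted p 0.426, with an exact two-sided permutation p of 0.1, the smallest that 3 pools against 3 allow. A dimmer Gclm probe set, 1439050_at, read 7.61, 7.84 and 7.59 in wildtype and 7.54, 8.20 and 8.40 in knockdown pools. There the groups overlapped through knockdown pool 1, and the difference was 0.37 (SE 0.23).

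Gclc (1424296_at) read 9.97, 9.77 and 9.98 in wildtype and 9.07, 9.98 and 9.87 in knockdown pools 1, 2 and 3, a difference of -0.27 (SE 0.25). Knockdown pool 1 alone was low, and without it the difference was 0.018. Its other probe set differed by 0.18 (SE 0.14). Its groups overlapped in both probe sets.

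Gss stayed within a span of 0.16 over all 6 pools, at 8.06 ± 0.02 and 8.14 ± 0.09 (difference 0.08, SE 0.13). A second Gss probe set, higher in every knockdown pool, differed by 0.18 (SE 0.14). Gsr had the widest range of any member, 2.06. It read 10.31, 8.26 and 10.18 in wildtype pools 1, 2 and 3, against 9.12, 8.65 and 9.27 in knockdown pools. Wildtype pool 2 was thus the lowest of all, and the groups overlapped through it alone. The difference was -0.57 (SE 0.51, limma adjusted p = 0.849), and without wildtype pool 2 it was -1.24 (adjusted p = 0.224). Its other probe set, 1421816_at, was also lowest in wildtype pool 2. It read 9.46, 7.05 and 9.67 in wildtype and 8.79, 7.85 and 8.78 in knockdown pools.

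**Figure D3:**
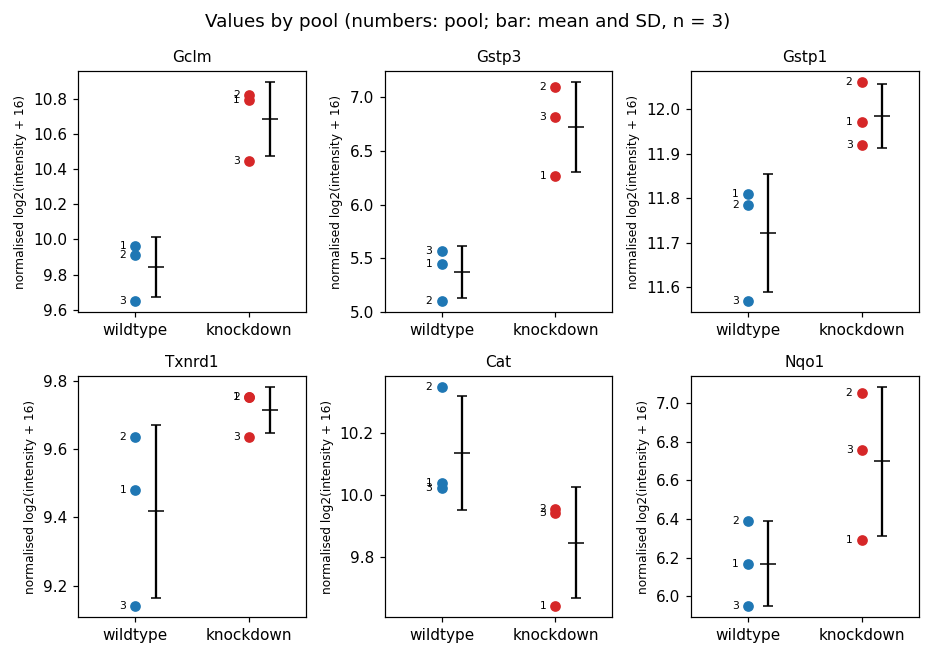
Normalised log2(intensity + 16) of 6 genes in each pool (points, numbered by pool) with the mean and SD of each group (n = 3 pools; bars), on axes that do not start at 0. Gclm, Gstp3, Gstp1 and Txnrd1 are higher in every knockdown pool and Cat is lower in every one, while Nqo1 overlaps through knockdown pool 1.

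Glutathione S-transferases attach glutathione to electrophiles. The largest difference among them was that of Gstp3 (1424953_at), which read 5.45, 5.10 and 5.56 in wildtype pools 1, 2 and 3, against 6.27, 7.09 and 6.81 in knockdown pools. The groups were 0.70 apart at their nearest pools. Their means were 5.37 ± 0.24 and 6.72 ± 0.42, a difference of 1.35 (SE 0.24, 95% interval 0.81 to 1.90), or 2.56-fold on this scale. Its limma p was 0.000478 and its adjusted p 0.382. The probe set is dim: its deposited intensities were 28.2, 18 and 32.7 in wildtype and 57.2, 117 and 97.9 in knockdown pools, and the wildtype values lay below the array medians of 81.4 to 91.5. With a pseudocount of 64 the difference was 0.79 and with one of 1 it was 1.79.

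Gstp1, the main pi class enzyme, pointed the same way by a smaller amount. It read 11.81, 11.79 and 11.57 in wildtype and 11.97, 12.06 and 11.92 in knockdown pools (difference 0.26, SE 0.14, 95% interval -0.06 to 0.59, limma adjusted p = 0.757). All knockdown pools lay above all wildtype pools. The Gstp genes are closely related neighbours on chromosome 19, and whether the Gstp3 probes also read Gstp1 was not tested.

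Of the 20 soluble glutathione S-transferases, 18 had higher means in the knockdown pools, with a median difference of 0.13, but 14 of 20 with the values as deposited and 13 of 20 without wildtype pool 2. In the probe sets that stand for the genes, none but Gstp3 had an unadjusted p under 0.05. Gstt2, of the theta class, read 8.87, 8.95 and 8.97 in wildtype and 9.68, 8.88 and 9.54 in knockdown pools (difference 0.44, SE 0.22). Knockdown pools 1 and 3 were high and knockdown pool 2 lay among the wildtype pools. Gstt3 (-0.16, SE 0.20) and the mitochondrial and peroxisomal Gstk1 (-0.03, SE 0.20) were the members with lower means.

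Gstm1, a mu class enzyme, read 11.89, 11.12 and 12.05 in wildtype and 12.06, 11.45 and 12.05 in knockdown pools 1, 2 and 3 (difference 0.17, SE 0.28). Pool 2 was lowest in each group, and without wildtype pool 2 the difference was -0.12. All 4 Gstm1 probe sets were higher in the knockdown means, by 0.13 to 0.36. The 7 Gstm genes differed by 0.04 to 0.38, and 5 of 7 were higher with the values as deposited and 4 of 7 without wildtype pool 2. Their sequences are alike, so their probe sets are not independent. The other soluble transferases, Gsta2, Gsta3, Gsta4, Gstm2 to Gstm7, Gsto1, Gsto2, Gstt1, Gstt4 and Gstz1, differed by 0.03 to 0.38, with groups that overlapped for each. Of these, Gstt1 (0.38) differed by 0.55 and Gsta4 (0.17) by 0.42 without wildtype pool 2. These values are those of the brightest probe set. The second probe sets of Gstm3, Gstm7 and Gsto1 differed by 0.45, 0.28 and -0.06.

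Mgst1, Mgst2 and Mgst3 are transferases of membranes, and Mgst2 can also make leukotriene C4. Mgst2 had the third widest range of the members, 1.83, and read 10.84, 9.25 and 10.70 in wildtype pools 1, 2 and 3, against 11.07, 9.92 and 11.04 in knockdown pools. Pool 2 was low in each group. The difference was 0.41 (SE 0.47), and -0.09 without wildtype pool 2. Mgst1 differed by -0.15 (SE 0.22), with knockdown pool 1 lowest at 9.30, and Mgst3 by 0.08 (SE 0.19).

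Glutathione peroxidases spend glutathione to reduce peroxides, and many are selenoproteins. Gpx1, the ubiquitous enzyme of the cytosol, read 12.31, 12.12 and 12.30 in wildtype and 12.12, 12.06 and 11.63 in knockdown pools (difference -0.30, SE 0.17, 95% interval -0.70 to 0.10). Knockdown pool 3 was lowest, and knockdown pool 1 and wildtype pool 2 read nearly the same. Gpx4, which reduces lipid hydroperoxides in membranes, differed by 0.06 (SE 0.14, 95% interval -0.27 to 0.39) over a range of 0.31. That interval leaves out a change of 1.5-fold in either direction.

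Gpx2, best known from the gut, read 6.04, 6.32 and 6.39 in wildtype and 5.93, 6.06 and 5.64 in knockdown pools (difference -0.38, SE 0.17). The groups overlapped by a small margin. Gpx8 and Gpx7, enzymes of the endoplasmic reticulum, had differences of -0.50 (SE 0.26) and 0.34 (SE 0.22), and without wildtype pool 2 of -0.72 and 0.57. Gpx6 differed by 0.22 (SE 0.24), and by 0.49 without wildtype pool 2. Gpx2, Gpx6 and Gpx8 had means below the median of all probe sets. Gpx3, a secreted enzyme named after its values were seen, read 8.30, 6.83 and 8.45 in wildtype and 7.99, 7.29 and 8.22 in knockdown pools (difference -0.03, SE 0.44). Its pool 2 was lowest in each group, and without wildtype pool 2 the difference was -0.54. Gpx5 differed by 0.11 (SE 0.16).

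**Figure D4:**
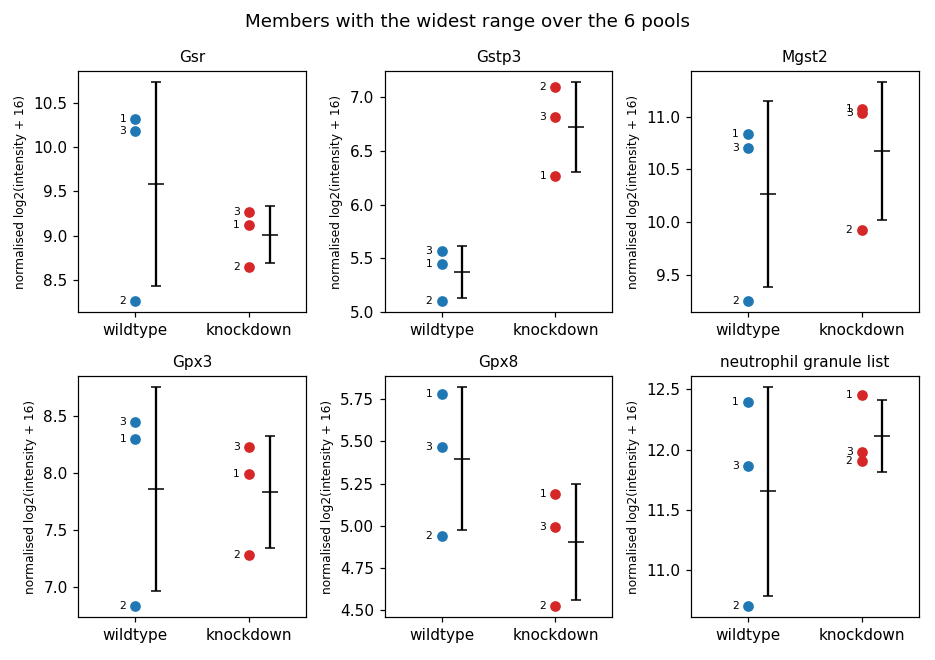
Normalised log2(intensity + 16) in each pool (points, numbered by pool) of the 5 members with the widest range over the 6 pools, and the mean of the neutrophil granule list, with group mean and SD (n = 3 pools; bars), on axes that do not start at 0. Pool 2 is lowest in both groups for Gsr, Mgst2, Gpx3 and Gpx8, and wildtype pool 2 is lowest for the neutrophil list.

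The members with the widest ranges, apart from Gstp3, thus varied among the pools of one group more than between the groups. The neutrophil granule list had mean log2 values of 12.39, 10.70 and 11.87 in wildtype pools 1, 2 and 3, against 12.45, 11.90 and 11.98 in knockdown pools. Pool 2 had the lowest list mean in each group, as for Gsr, Mgst2 and Gpx3. The stem and progenitor list was highest in wildtype pool 2, at 9.94 beside 9.16 and 9.29 in wildtype and 9.20 to 9.32 in knockdown pools. Whether the makeup of the sorted cells accounts for these members was not tested. With wildtype pool 2 left out, 10 members had an unadjusted p under 0.05 in place of 3, while the share of all genes went from 7.63% to 9.85%. Of the 10, Gclm, Gstp3 and Nqo1 were in the list with all pools, and Gpx6, Gpx7, Gpx8, Gsr, Gstt1, Txnip and Txnrd1 were added.

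Superoxide dismutases differed by less than the error of the fit in the probe set that stands for each. Sod1, of the cytosol, read 12.11, 12.36 and 12.19 in wildtype and 12.25, 12.22 and 12.13 in knockdown pools (difference -0.02, SE 0.14, 95% interval -0.34 to 0.30). Sod2, of mitochondria, had 10.95 ± 0.08 and 10.96 ± 0.13 (difference 0.01, SE 0.14, 95% interval -0.31 to 0.33). Neither gene kept its sign in all alternatives. The 5 Sod1 probe sets differed by -0.20 to 0.24, and the 4 of Sod2 by -0.09 to 0.10. The secreted Sod3 was dim and differed by 0.12 (SE 0.24).

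Catalase, which degrades hydrogen peroxide in peroxisomes, was the 1 member whose values were lower in every knockdown pool. Cat (1416430_at) read 10.04, 10.35 and 10.02 in wildtype and 9.64, 9.96 and 9.94 in knockdown pools. The nearest pools of the groups were 0.07 apart. The difference was -0.29 (SE 0.16, 95% interval -0.67 to 0.09, limma adjusted p = 0.769), or 0.817 of the wildtype level. A second probe set differed by -0.25 (SE 0.20) with groups that overlapped, and the difference of the first was -0.19 without knockdown pool 1 or without wildtype pool 2.

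Peroxiredoxins reduce peroxides with electrons from thioredoxin, and sulfiredoxin (Srxn1) revives those that are overoxidised. Prdx2, abundant in red cells, read 11.65, 11.83 and 11.64 in wildtype and 11.92, 12.09 and 11.72 in knockdown pools (difference 0.20, SE 0.15). Its second probe set differed by 0.55. In the first probe set, knockdown pool 2 was highest. It was also highest for the mean of 8 erythroid genes, at 9.42 beside 7.74 to 9.06 in the other pools. The order of those other pools differed. Wildtype pools 1 and 3 were lowest for Prdx2 but next highest for the erythroid mean, at 9.06 and 8.65. The mitochondrial Prdx3 averaged 9.35 in both groups (SE of the difference 0.22). Prdx4, of the endoplasmic reticulum, differed by -0.18 (SE 0.18), and its 4 probe sets by -0.47 to -0.18. The dim Prdx4 probe set 1416166_a_at read 6.74, 6.66 and 6.76 in wildtype and 5.92, 6.61 and 6.43 in knockdown pools, lower in every knockdown pool (difference -0.40, SE 0.19, limma adjusted p = 0.734). Srxn1 differed by 0.25 (SE 0.18), and its 4 probe sets by -0.11 to 0.41. The dim Srxn1 probe set 1451680_at read 6.04, 5.86 and 5.87 in wildtype and 6.45, 6.22 and 6.34 in knockdown pools, without overlap (limma adjusted p = 0.638).

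Thioredoxin 1 (Txn1) was the steadiest member by its brightest probe set, with a range of 0.13 over the 6 pools and means of 12.53 ± 0.04 and 12.50 ± 0.06. A second Txn1 probe set differed by 0.20. The mitochondrial form Txn2 differed by 0.11 (SE 0.15). Txnrd1, the cytosolic reductase that recharges thioredoxin, read 9.48, 9.64 and 9.14 in wildtype and 9.75, 9.75 and 9.64 in knockdown pools (difference 0.30, SE 0.17, limma adjusted p = 0.767). The highest wildtype and the lowest knockdown pool were separated by less than the rounding of these values. Without wildtype pool 2 the difference was 0.405. Its other probe sets had groups that overlapped, with differences of 0.11 each. The mitochondrial Txnrd2 averaged 8.10 ± 0.04 and 8.06 ± 0.45, with knockdown pool 2 high at 8.57, and Txnrd3 differed by 0.02 (SE 0.18). The 4 Txnrd2 probe sets differed by -0.06 to 0.35.

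Txnip binds and inhibits thioredoxin and is known to support HSC quiescence. It read 10.64, 11.75 and 10.95 in wildtype and 11.21, 11.28 and 11.42 in knockdown pools (difference 0.19, SE 0.27). Wildtype pool 2 was the highest of all pools, as it was for the stem and progenitor list. Without that pool the difference was 0.51 (limma adjusted p = 0.474), and without wildtype pool 1 it was -0.05.

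Glutaredoxins use glutathione to reduce mixed disulfides or, in the case of Glrx3 and Glrx5, serve iron-sulfur clusters. All 4 had groups that overlapped. Glrx averaged 10.80 ± 0.20 and 10.79 ± 0.30, and Glrx5 had a difference of 0.06 (SE 0.16), Glrx2 of 0.09 (SE 0.16) and Glrx3 of 0.11 (SE 0.21). A second Glrx probe set differed by 0.36 (SE 0.31), and the 3 Glrx2 probe sets by 0.09 to 0.35.

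Nqo1, a quinone reductase and textbook Nrf2 target, read 6.17, 6.39 and 5.95 in wildtype and 6.29, 7.05 and 6.76 in knockdown pools. Knockdown pools 2 and 3 lay above all wildtype pools and knockdown pool 1 among them. The difference was 0.53 (SE 0.22, 95% interval 0.02 to 1.05, limma adjusted p = 0.693), and 0.35 without knockdown pool 2. Its mean was below the median of all probe sets. Hmox1, the inducible haem oxygenase and another Nrf2 and Bach1 target, read 6.94, 7.01 and 7.65 in wildtype and 7.36, 7.56 and 7.17 in knockdown pools (difference 0.16, SE 0.22). The groups overlapped. Hmox2, the constitutive form, differed by -0.06 (SE 0.14).

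Around these enzymes lie the genes that regulate and supply them, of which 69 of 74 listed were measured. None passed the limma test over all probe sets, and 5 of the 69 had an unadjusted p under 0.05, with 4 higher and 1 lower. That is close to the 7.63% of all genes (4.1% higher and 3.52% lower), so the genes named here are described and not set apart from the rest. The one lower was Abcc1, a transporter that exports glutathione and its conjugates. It read 9.78, 10.11 and 9.84 in wildtype and 9.02, 9.14 and 9.003 in knockdown pools (difference -0.86, SE 0.15, limma adjusted p = 0.382), while its second probe set differed by 0.12. Every knockdown pool of the first lay below every wildtype pool.

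The 4 higher were Me1, Msrb3, Eefsec and Atm. Me1, the malic enzyme that makes NADPH, differed by 0.45 (SE 0.17), Msrb3, which repairs oxidised methionine, by 1.04 (SE 0.40), and Eefsec, the elongation factor for selenocysteine, by 0.55 (SE 0.17). Msrb3 was low in wildtype pool 1 (5.56 beside 7.07 and 6.93), without which it differed by 0.56, and its other probe set differed by 0.08. The kinase gene Atm differed by 0.45 (SE 0.17). In each case the groups did not overlap.

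Among the 10 genes of Nrf2 and Bach1 control, 0 had an unadjusted p under 0.05. Nfe2l2 read 9.93, 9.92 and 10.02 in wildtype and 10.23, 10.14 and 10.04 in knockdown pools (difference 0.18, SE 0.13), and its second probe set differed by -0.38. Bach1 read 9.62, 9.65 and 9.33 in wildtype and 8.68, 9.36 and 9.20 in knockdown pools (difference -0.45, SE 0.21), with the other probe set at 0.09. The groups overlapped for Bach1 and not for Nfe2l2. Of the remaining named genes, Ggt5 (0.45, SE 0.20), which splits glutathione conjugates, and ferritin heavy chain Fth1 (0.19, SE 0.13) had higher means. Isocitrate dehydrogenase Idh1 (-0.69, SE 0.35), the transferrin receptor Tfrc (-0.34, SE 0.27), Selenos (-0.32, SE 0.23), Foxo4 (-0.24, SE 0.16) and Sepsecs (-0.18, SE 0.16) had lower ones. Wildtype pool 2 was the lowest wildtype pool for Idh1, Tfrc and Selenos, and without it they differed by -1.13, -0.57 and -0.55. Another probe set went the other way for Tfrc (0.14), Foxo4 (0.06) and Sepsecs (0.08). The probe sets of Idh1 (-0.86 to -0.69) and of Selenos (-0.52 to -0.24) were all lower.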

How the data were processed

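The authors deposited 1 table of processed intensity values on a linear scale, 1 column per array. Per the labels' protocols, RNA was amplified in a pair of rounds of reverse transcription and T7 transcription, which favours 3′ ends and adds noise to weak transcripts. The sources used here do not give the software, background correction or scaling. Between 264 and 409 values per array were below 0. A floor of 1 was applied before log2(value + 16), which understates the folds of dim genes. Array medians ran from 6.61 to 6.75 on that scale, above a limit of 0.1, and arrays were quantile normalised. The test was limma's (version 3.58.1; lmFit, eBayes) under R 4.3.3 over all 44991 probe sets, two-sided, adjusted after Benjamini-Hochberg and called at 0.05. Names come from the platform annotation, where 34921 probe sets had 1 symbol, 930 several and 9140 none. The number of arrays limits precision. The limma p-values set each difference against the spread between pools, which limma moderates with that of all probe sets.

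The members and lists were chosen with earlier results of these data known. Named were, in each role group, up to 2 genes of smallest p per direction, the 2 brightest, all with groups that did not overlap, and 1 gene per direction in each pathway list. Alternatives were normalisation, pseudocount, a filter on dim probe sets, the moderation, array weights, the replicate block, the mean of a gene's probe sets and leaving out each pool. Promoter windows are from RefSeq, GRCm38.p6. The fit was tested on simulated data. Figures used Python 3.11.15 and matplotlib 3.10.9.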

Additional observations from a re-analysis of the deposited data

How the results depend on the processing

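In every alternative run, 0 member genes passed at an adjusted p under 0.05. The median member difference stayed above 0 (0.022 to 0.11), beside -0.042 to 0.031 over all genes. Most members had higher means in the knockdown, 30 to 42 of 56, or 31 of 46 with the filter on dim probe sets. These were 53.6% to 75.0% of the members, beside 41.9% to 55.8% of all genes. The lowest share, without wildtype pool 2, stood beside 51.0% of all genes. Over all probe sets, 0 to 2 were called when 1 pool was left out, and 0 otherwise. The members at an unadjusted p under 0.05 numbered 5 with array weights (9.61% of all genes) and 5 with the replicate block (7.65%), in place of 3 (7.63%). They numbered 2 to 10 with 1 pool left out (5.33% to 9.85%), the highest of both without wildtype pool 2. Those counts were added after the data were seen.

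Over all probe sets, deviations of same-numbered pools correlated at 0.18, 0.06 and -0.04, and the replicate block changed no call at an adjusted p under 0.05. These correlations cannot show whether same-numbered pools shared a sort or an array batch. Gclm kept its sign in all 15 alternatives (0.61 to 0.97, adjusted p 0.282 to 0.784), as did Gstp3 in the 14 that held it (0.79 to 1.79, adjusted p 0.214 to 0.757). Of 55 named genes, 34 kept their sign in all alternatives and 21 did not, which made 52 reversed values of 820. The cause of the reversals was not tested, and apart from Gclc and Mgst2 they concerned differences under 0.2 in size.

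With values as deposited, signs turned for Gss (-0.00025), Mgst3 (-0.0028), Sod1 (0.0085), Sod2 (-0.029) and Txn1 (0.0043). With median centring they turned for Glrx (0.023), Sod1 (0.082) and Txn1 (0.077). Array weights turned Gstk1 (0.031), Gstm1 (-0.0092), Sod1 (0.0023) and Txnrd2 (0.0104). The mean of all probe sets turned Glrx (0.18), Nfe2l2 (-0.10), Sod1 (0.033), Sod2 (-0.0075), Txn1 (0.086) and Txnrd2 (0.10).

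Leaving out 1 pool gave ranges across 0 for Gclc (-0.44 to 0.018), Glrx (-0.16 to 0.13), Glrx2 (-0.013 to 0.16), Glrx3 (-0.11 to 0.29), Glrx5 (-0.051 to 0.12), Gpx3 (-0.54 to 0.27), Gpx4 (-0.00997 to 0.145) and Gstk1 (-0.15 to 0.15). It did so too for Gstm1 (-0.12 to 0.37), Mgst1 (-0.30 to 0.063), Mgst2 (-0.095 to 0.79), Mgst3 (-0.053 to 0.21), Prdx3 (-0.21 to 0.12), Sod1 (-0.076 to 0.051), Sod2 (-0.042 to 0.078), Sod3 (-0.16 to 0.25), Txnip (-0.049 to 0.51) and Txnrd2 (-0.29 to 0.13). The 40th percentile filter left 46 members and no value for Gstp3. Dim members are read least precisely.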
